A study of Mus musculus with 10 samples.

Results

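M1 is a mesenchymal cell line grown from a mouse mammary tumour that came back after cells of the epithelial line E had been injected into a female FVB/N mouse. Line E was cultured from a mammary adenocarcinoma that arose by itself in a female of the strain FVB/N-TgN(MMTVneu)202Mul. In that strain a neu transgene (Erbb2) is under the control of the long terminal repeat of the mouse mammary tumour virus, a promoter active in mammary epithelium. The comparison reported here is M1 against E: its members are the 4 arrays labelled with these lines, 2 of E and 2 of M1, of 10 arrays in all. The other 6 arrays hold 3 further relapse lines, M2, M3 and M4, each with 2 arrays and each, by its label, also from a relapsed tumour in a female FVB/N mouse after injection of E cells. No ages or treatments are given for the mice, and all lines carry the history of the same E culture. The cultures had reached 80% confluence on 10 cm dishes in RPMI with 10% serum, and total RNA was labelled with biotin for a 1-colour mouse array. Each line stands for 1 tumour, and the sources used here do not say whether its 2 arrays are of separate cultures, so p-values measure only the spread between these arrays, which may be technical.

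An epithelial cell is held to its neighbours by adherens junctions, tight junctions and desmosomes, has an apical and a basal side, and rests on a basement membrane. In an epithelial-mesenchymal transition (EMT) cells lose these junctions and their keratin network and take on a spindle shape, N-cadherin, a contractile cytoskeleton and a fibrillar matrix. The transcription factors of the SNAIL, ZEB and TWIST families are known to drive this change, in part by binding E-box sequences in the promoters of epithelial genes and lowering their transcription. In mammary tumours started by neu in mice, relapses with mesenchymal features are a known outcome.

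The values are deposited probe set signals on a linear scale. Changes are differences of log2(signal + 32), M1 minus E, given with the standard error (SE) of limma's fit, so that a value of 1 is a 2-fold higher signal after the pseudocount of 32 is added. For genes near the background in either line the size of the change depends on that pseudocount. Calls needed a change of at least 2-fold and an adjusted p under 0.05 (limma, Benjamini-Hochberg over 14840 genes). Signal levels differed between arrays, with a trimmed mean of 299 and 264 on the E arrays and 252 and 249 on the M1 arrays, and 181 to 272 on the other 6. Arrays of the same line correlated at 0.992 (E) and 0.993 (M1), and E arrays correlated with M1 arrays at 0.889 to 0.892. The ratio of 3' to 5' signal of Actb was 1.24 and 1.22 in E and 1.16 in both M1 arrays.

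With the deposited scaling 3134 of 14840 genes (21.1%) were called, 1276 higher (8.6%) and 1858 lower (12.5%) in M1. After quantile normalization, which gives every array the same distribution, 1503 were higher (10.1%) and 1389 lower (9.36%), and the median change of all genes moved from -0.11 to 0.03. The balance of falls and rises depended on the scaling. Under both scalings 1275 genes were called higher (8.59%) and 1388 lower (9.35%), and "rose" and "fell" refer to these genes from here on. A gene list is read against those 2 percentages and against the median change of all genes. The lists were chosen with earlier results of these data known, so these readings describe the lists and are not independent tests.

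**Figure D1:**
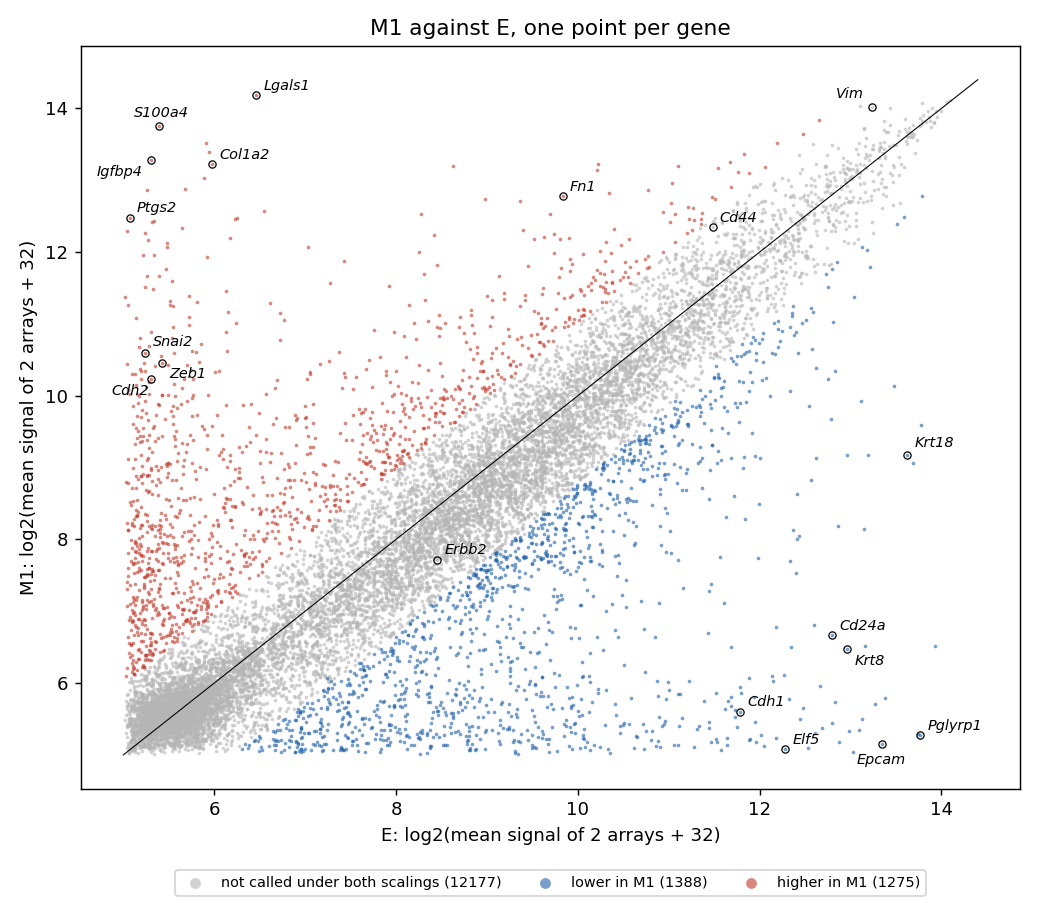
Mean signal of each of the 14840 tested genes in E (x axis) and M1 (y axis), both as log2(mean of 2 arrays + 32), with the line of equal signal. Red points were called higher and blue points lower under both scalings; labelled genes lie at the M1 edge (Snai2, Zeb1, Cdh2), at the E edge (Epcam, Cdh1, Elf5) or near the diagonal (Vim, Cd44, Erbb2).

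The largest rises ran from background to among the brightest signals of the array. S100a4 read 11.2 and 8.7 on the E arrays and 13732 and 13881 on the M1 arrays (8.37 ± 0.11); this calcium-binding protein, also called fibroblast-specific protein, is known from motile cells. Lgals1, a beta-galactoside-binding lectin, read 54.8 and 57.4 on the E arrays and 18531 and 18694 on the M1 arrays (7.73 ± 0.09). Igfbp4 read 13.7 and 1.3 on the E arrays and 10223 and 9615 on the M1 arrays (7.99 ± 0.12); its product binds insulin-like growth factors. The caveolar coat protein gene Cav1 and the serine protease gene Htra1 followed, with log2 changes of 7.60 ± 0.12 and 7.44 ± 0.11. Ptgs2 read 2.8 and 0.4 on the E arrays and 5669 and 5688 on the M1 arrays (7.41 ± 0.12); it codes for cyclooxygenase 2, the inducible enzyme of prostaglandin synthesis. The 15 largest rises also held Crabp2 (7.60), Col1a2 (7.26), Cd34 (7.25), Emp3 (7.20), Igfbp6 (7.14), Dynap (7.11), Glipr1 (7.11), Efemp1 (7.03) and Lox (6.91). In each of these 15 genes both M1 arrays lay above both E arrays by far more than the arrays of a line differed from each other. The genes were picked for the largest changes on these same arrays, so this separation follows from the choice.

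The largest falls were of genes that E expressed strongly. Pglyrp1, a secreted peptidoglycan-binding protein, read 13746 and 14067 on the E arrays and 11.1 and 2.2 on the M1 arrays (-8.50 ± 0.18). Wfdc18, a small secreted protein of the mammary gland, read 13659 and 13596 on the E arrays and 11 and 3.3 on the M1 arrays (-8.45 ± 0.17). Epcam read 10675 and 10046 on the E arrays and 4.2 and 2.9 on the M1 arrays (-8.19 ± 0.17); it codes for the epithelial cell adhesion molecule, and its adjusted p was 4.14e-38. Spint2, an inhibitor of membrane serine proteases, read 7802 and 7122 on the E arrays and 7.4 and 1.3 on the M1 arrays (-7.69 ± 0.18). The kappa-casein gene Csn3 went from 15599.8 and 15564 to 55.2 and 63.6 (-7.42 ± 0.16). The 15 largest falls also held Cnmd (-7.98), Cd177 (-7.74), Gpx2 (-7.66), St8sia6 (-7.63), Fxyd3 (-7.59), Chil1 (-7.57), Ceacam10 (-7.43), Cldn3 (-7.39), Stox2 (-7.33) and Cldn7 (-7.30). Of the genes called under both scalings, 140 rose and 188 fell by 16-fold or more, and 33 and 48 by 64-fold or more.

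**Figure D2:**
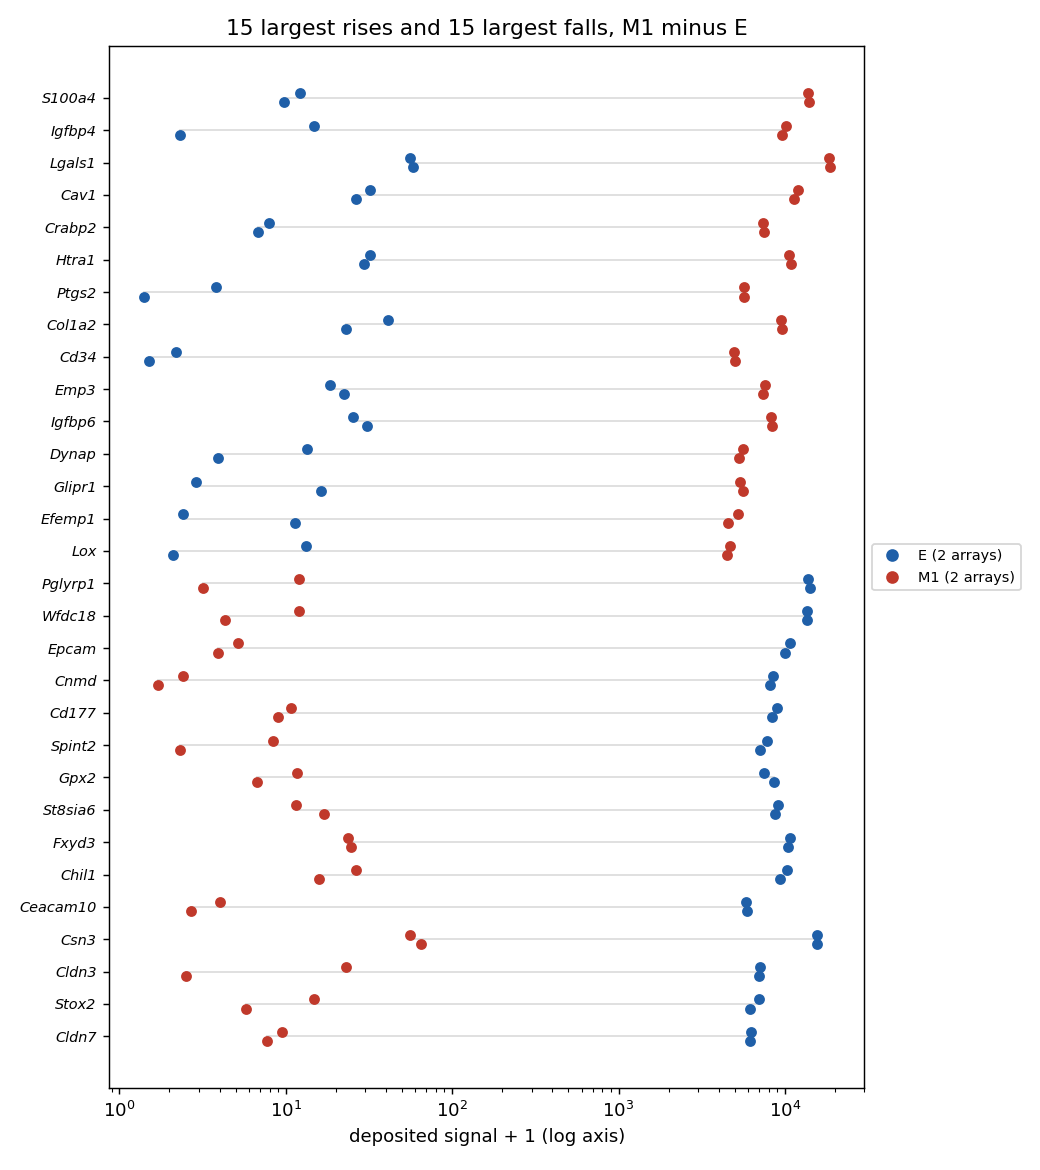
Deposited signal plus 1 (log axis) on the 2 E arrays (blue) and the 2 M1 arrays (red) for the 15 largest rises, above, and the 15 largest falls, below. In every gene shown the lines are separated by at least 1 order of magnitude, and the dim line is near the array background.

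Genes of cell-to-cell adhesion were among the strongest falls. Of 15 tested adherens junction and related surface genes, 7 fell and 0 rose, with a median change of -0.90 beside -0.11 for all genes. Cdh1 read 3788 and 3215 on the E arrays and 19.3 and 13.7 on the M1 arrays (-6.18 ± 0.18); it codes for E-cadherin, the core of the epithelial adherens junction. Plakoglobin (Jup) fell by 3.78, from a mean of 1871 to 106. Spint1, which inhibits the membrane protease matriptase, and St14, which codes for matriptase, changed by -5.27 ± 0.18 and -5.25 ± 0.18. The catenin genes that couple cadherins of any kind to actin did not pass: Ctnnb1 (-0.46), Ctnna1 (-0.90) and Ctnnd1 (-0.84). Vcl, for the adaptor vinculin, was at 0.92 ± 0.13 and not called.

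Tight junction genes fell in most cases: 15 of 19 fell and 0 rose, with a median of -3.54. Cldn3 read 7129 and 7020.4 on the E arrays and 21.9 and 1.5 on the M1 arrays (-7.39 ± 0.19), and Cldn7 read 6257 and 6158 on the E arrays and 8.5 and 6.7 on the M1 arrays (-7.30 ± 0.17); claudins form the paracellular seal. Occludin went from 1127 and 949.8 to 7.8 and 2.6 (-4.85 ± 0.19). The junctional receptors F11r and Lsr, which sit at bicellular and tricellular contacts, changed by -5.66 ± 0.19 and -5.25 ± 0.21. Tjp1, for the scaffold ZO-1, fell least of those that passed, from 2756 and 2410.4 to 856 and 833 (-1.57 ± 0.15). Claudin 12, found outside tight junctions too, was at 0.74 and claudins 5, 6 and 8 between -0.96 and 0.31, all not called.

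Dsp read 4029 and 3487 on the E arrays and 2 and 7.6 on the M1 arrays (-6.69 ± 0.18); desmoplakin ties keratin filaments to the desmosome. The desmosomal cadherins desmoglein 2 (Dsg2, -6.67 ± 0.18) and desmocollin 2 (Dsc2, -4.44 ± 0.19) also fell, as did Pkp3 (-2.06) and Evpl (-1.49), the Evpl call being lost with the largest pseudocount tried and with low values set to 64. In all, 5 of 11 fell under both scalings. Pkp1, Ppl and Perp, at -1.28, -1.15 and -1.0, were called lower only with the deposited scaling. Among polarity and apical sorting genes 14 of 19 fell. Ap1m2, the epithelial mu subunit of the clathrin adaptor that sorts to the basolateral side, read 3119.9 and 2754 in E and 4 and 4.3 in M1 (-6.36 ± 0.18). The recycling-endosome GTPase gene Rab25 read 2222 and 2107 and 4.3 and 2.2 (-5.96 ± 0.18). Crumbs 3 (Crb3), Pard6b and Llgl2, which belong to the complexes that set up the apical and basal domains, changed by -2.51, -2.44 and -2.28. Their partners Prkci (-0.54), Pard3 (-0.40) and Scrib (0.06) did not pass.

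Transcription and splicing factors of the epithelial programme fell in 13 of 19 cases, with 0 rising. Elf5 read 5061 and 4838 on the E arrays and 2 and 1.7 on the M1 arrays (-7.20 ± 0.18); Elf5 directs the secretory alveolar lineage of the mammary gland. Tfap2c, an AP-2 factor of luminal cells, read 4799 and 4443 on the E arrays and 10.3 and 1.3 on the M1 arrays (-6.95 ± 0.18). Of the genes of these 5 adhesion, polarity and factor lists, 0 rose; at a raw limma p under 0.05 with no fold limit 1 adherens junction and 1 tight junction gene were higher and 0 in the other 3 lists. Esrp1 and Esrp2, the splicing regulators that set epithelial isoforms, changed by -5.37 ± 0.19 and -3.81 ± 0.20. Grhl2 and Ovol2, known to hold epithelial identity, changed by -4.02 ± 0.18 and -2.74 ± 0.19. Gata3, the luminal GATA factor, kept a signal of 109.8 and 123 in M1 against 1158 and 1072 in E (-2.95 ± 0.17). Cebpb, Sox9 and Tfap2a did not pass (-0.42, 0.10 and -0.69).

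Of 9 keratin genes tested 4 fell and 5 did not pass. Krt7 read 7518 and 6944 on the E arrays and 24.5 and 18.2 on the M1 arrays (-7.09 ± 0.21). Krt8 read 8477 and 7441 on the E arrays and 46.9 and 67.2 on the M1 arrays (-6.49 ± 0.13). Its filament partner Krt18 read 12784 and 12439 on the E arrays and 542 and 554 on the M1 arrays (-4.44 ± 0.17). Krt23 went from 82.7 and 79.3 to 2.8 and 2.3 (-1.71 ± 0.21), a call lost with the largest pseudocount tried and with low values set to 64. The basal keratin Krt14 read 5.3 and 4.6 in E and 27 and 15.3 in M1 and was not called (0.52 ± 0.21), and Krt5 was near background in both lines, at means of 19.4 and 21.1. All 10 tested luminal mammary markers fell, 9 of them shared with the lists above, with a median of -5.82 and summed signals of 55023 and 51666 on the E arrays and 781 and 799.5 on the M1 arrays. Of 9 basal and myoepithelial markers, the contractile genes Acta2 and Mylk rose (4.47 and 2.59), Lamb3 fell (-3.37) and 6 did not pass, among them Trp63, near background in both lines at 13.8 and 4.05.

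Because SNAIL and ZEB factors bind the E-box CAGGTG, promoter windows of genes that fell are shown with each CAGGTG in capitals; the same site read on the other strand is CACCTG. The windows are from RefSeq on GRCm38.p6, run from 250 bases before to 50 bases after the annotated start, and are printed in the direction of transcription. Epcam lies at chr17:87635729-87636028 (+ strand), the Cldn7 window at chr11:69965171-69965470 (+ strand), Krt8 at chr15:102004293-102004592 (- strand) and Krt18 at chr15:102027966-102028265 (+ strand).
Epcam: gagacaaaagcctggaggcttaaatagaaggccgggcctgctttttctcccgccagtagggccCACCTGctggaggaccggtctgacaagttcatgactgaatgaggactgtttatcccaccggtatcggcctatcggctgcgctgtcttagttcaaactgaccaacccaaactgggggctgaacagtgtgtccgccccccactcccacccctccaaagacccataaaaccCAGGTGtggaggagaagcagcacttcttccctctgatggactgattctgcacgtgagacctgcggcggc
Cldn7: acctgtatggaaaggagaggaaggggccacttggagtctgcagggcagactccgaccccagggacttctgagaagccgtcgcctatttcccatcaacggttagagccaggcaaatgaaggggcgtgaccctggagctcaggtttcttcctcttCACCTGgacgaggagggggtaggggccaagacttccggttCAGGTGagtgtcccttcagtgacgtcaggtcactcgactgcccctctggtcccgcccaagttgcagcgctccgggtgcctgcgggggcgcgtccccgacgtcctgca
Krt8: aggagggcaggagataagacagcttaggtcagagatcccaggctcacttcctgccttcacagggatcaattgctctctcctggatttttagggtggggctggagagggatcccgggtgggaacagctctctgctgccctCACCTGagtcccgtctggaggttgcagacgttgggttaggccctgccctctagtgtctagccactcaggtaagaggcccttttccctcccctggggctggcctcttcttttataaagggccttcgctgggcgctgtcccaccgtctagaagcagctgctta
Krt18: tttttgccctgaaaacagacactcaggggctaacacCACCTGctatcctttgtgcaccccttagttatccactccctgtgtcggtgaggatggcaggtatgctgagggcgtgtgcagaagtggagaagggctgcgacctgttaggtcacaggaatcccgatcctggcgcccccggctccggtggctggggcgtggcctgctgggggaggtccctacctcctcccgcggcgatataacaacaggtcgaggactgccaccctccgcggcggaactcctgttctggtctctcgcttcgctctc
The motif begins 187 and 19 bases before the Epcam start, 97 and 57 before this Cldn7 start, 111 before the Krt8 start and 214 before the Krt18 start. A further Cldn7 window, at chr11:69964529-69964828, holds 0 matches. The table holds a window for 11895 of the 14840 tested genes; Cdh1 and Esrp1 are named only. Of all 32851 promoter windows of that source 20.2% hold the motif on either strand. The share was 26.1% of 1513 windows of genes that fell, 15.7% of 1314 windows of genes that rose and 18.9% of 12299 windows of genes in neither group. A match is a description of the letters only, and base composition was not matched between these groups.

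Genes of milk and mammary secretion fell in 11 of 20 cases and rose in 3. Beside Pglyrp1, Wfdc18 and Csn3, lactoferrin (Ltf) went from 3235 and 3064 to 3.1 and 3 (-6.50 ± 0.19). The iron-carrier lipocalin Lcn2 went from 13981 and 14010.2 to 721 and 761 (-4.18 ± 0.10), and the receptor that carries polymeric antibody into milk, Pigr, from 1085 and 925 to 9.6 and 19.6 (-4.48 ± 0.19). The 3 that rose were Slpi (2.93), Esr1 (2.42) and Xdh (2.22). Slpi, a secreted inhibitor of leukocyte proteases, read 705 and 575 in E and 5017 and 5077 in M1. Esr1, the oestrogen receptor, was near background in E (6.4 and 1.9) and read 146 and 178 in M1; with the mean of its probe sets it was not called. Wap, a whey protein, was near background in both lines, with means of 24.4 and 23.8.

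**Figure D3:**
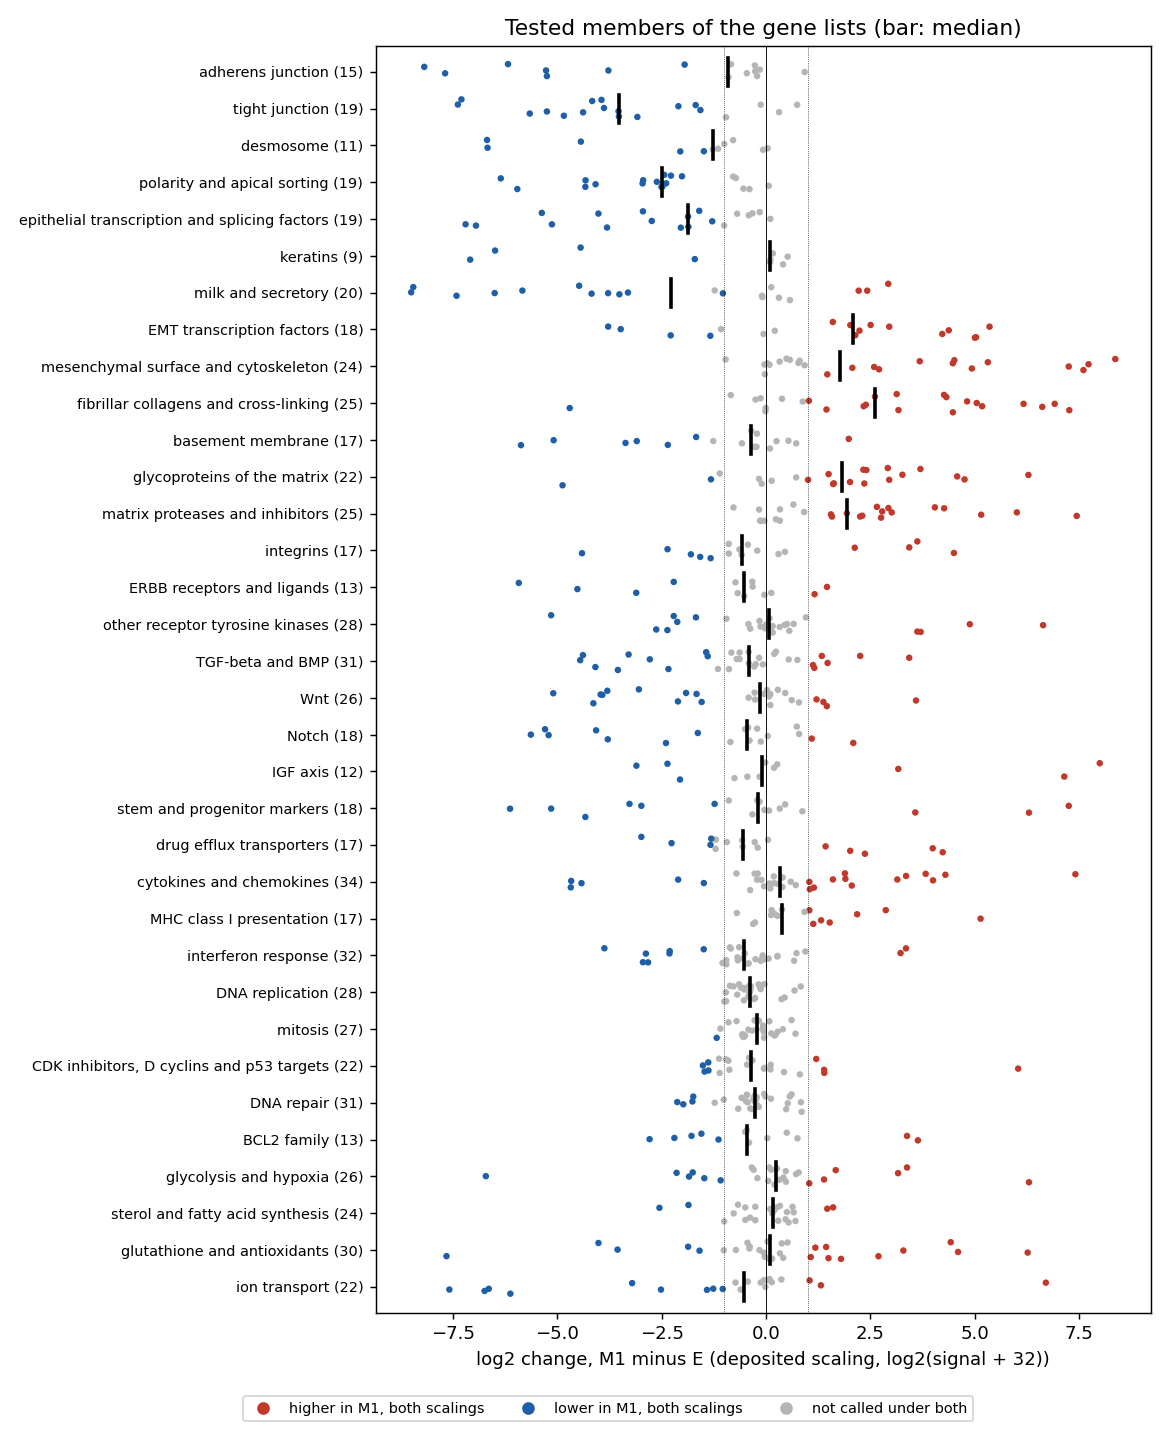
Change of each tested member of 34 gene lists, M1 minus E on the log2(signal + 32) scale, with the number tested in parentheses and a bar at the list's median. Red and blue points were called under both scalings and grey points were not; the medians of the junction, polarity and epithelial factor lists lie left of 0, those of the fibrillar collagen, matrix glycoprotein and matrix protease lists right of it and those of the basement membrane and integrin lists left, and the replication and mitosis lists stay within about 1 of it.

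EMT transcription factors rose in 11 of 18 cases and fell in 4. The falls were of Foxc1, Tbx2, Id1 and Id2, and Snai3 was called lower with the deposited scaling and not after quantile normalization. Snai2 read 2.8 and 8.8 on the E arrays and 1494 and 1523 on the M1 arrays (5.35 ± 0.16); it codes for SLUG. Zeb1 read 7.1 and 15 on the E arrays and 1418 and 1320.5 on the M1 arrays (5.03 ± 0.16). Prrx2, a paired-related homeobox factor of mesenchyme, read 4.7 and 2 on the E arrays and 1058 and 1143 on the M1 arrays (5.0 ± 0.16), and its relative Prrx1 changed by 4.22 ± 0.16. Snai1, which codes for SNAIL, read 5.6 and 15.9 in E and 275 and 318 in M1 (2.95 ± 0.19). Zeb2 and Twist1 stayed low in M1, at 160.4 and 138 and 83.8 and 91, from 10.5 and 2.6 and 14.1 and 1.7 in E. The Twist1 call was lost with the largest pseudocount tried and with low values set to 64. Twist2 rose more, to 856 and 940.4 (4.38 ± 0.17).

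The inhibitors of differentiation, which block E-protein factors by pairing with them, did not move together. Id1 read 6507 and 6009 on the E arrays and 514 and 546 on the M1 arrays (-3.48 ± 0.15) and Id2 read 5353 and 5488 on the E arrays and 329 and 401 on the M1 arrays (-3.78 ± 0.15). Id3 rose, from 492 and 374 to 1839.9 and 1832 (2.02 ± 0.14), and Id4 was not called (0.21 ± 0.17). The E-protein gene Tcf4 rose (2.14 ± 0.16) and Tcf3 did not pass (-0.06 ± 0.17). The T-box repressors moved in opposite directions: Tbx2 went from 147 and 127 to 1.5 and 3.6 (-2.29 ± 0.20) and Tbx3 from 1.6 and 16.5 to 212 and 183 (2.50 ± 0.18).

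Of 24 mesenchymal surface and cytoskeletal genes 13 rose and 0 fell, with a median of 1.77. Cdh2 read 9.5 and 5.8 on the E arrays and 1192 and 1158 on the M1 arrays (4.93 ± 0.17); it codes for N-cadherin. Acta2, the smooth-muscle actin of myofibroblasts and myoepithelium, read 175 and 105 on the E arrays and 3669.6 and 3751 on the M1 arrays (4.47 ± 0.17). Myl9 and Tpm2, a regulatory light chain of myosin and a tropomyosin, changed by 3.68 ± 0.18 and 5.31 ± 0.17. The caveolar genes Cav1 and Cavin1 rose together (7.60 and 4.51), whereas Cav2 did not pass (0.49). Vim, for the intermediate filament vimentin, was already bright in E: it read 9979.5 and 9308 in E and 16576 and 16441 in M1, a change of 0.77 ± 0.08 that did not reach 2-fold (adjusted p = 6.66e-12). Of 2 other Vim probe sets, at 0.80 and 1.11, 1 was called higher with the deposited scaling. The other bright cytoskeletal genes that did not pass were Cnn2 (-0.03), Tpm4 (0.03), Cnn3 (0.32), Tpm1 (0.57) and S100a6 (0.92).

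Genes for fibrillar collagen and its maturation rose in 17 of 25 cases and fell in 1. Col1a2 read 40.2 and 21.9 on the E arrays and 9502 and 9615 on the M1 arrays (7.26 ± 0.16). Its partner chain Col1a1 went from 4.1 and 2 to 1310.2 and 1162 (5.18 ± 0.17), and Col5a2 and Col3a1 changed by 6.17 ± 0.16 and 4.47 ± 0.16. Lox read 12.2 and 1.1 on the E arrays and 4700.5 and 4467 on the M1 arrays (6.91 ± 0.14); lysyl oxidase cross-links collagen and elastin. The prolyl hydroxylase gene P4ha2 and the procollagen protease enhancer Pcolce changed by 4.82 ± 0.17 and 5.05 ± 0.12. Decorin (Dcn), which binds collagen fibrils, read 21.1 and 3.9 in E and 4261 and 4244 in M1 (6.62 ± 0.13). Col11a1 was the exception, falling from 919.5 and 762 to 1.1 and 1.5 (-4.71 ± 0.19).

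Of 17 basement membrane genes tested, 6 fell and 1 rose. Col4a1 read 3396 and 3106 on the E arrays and 22.2 and 25.7 on the M1 arrays (-5.87 ± 0.17). Its partner Col4a2 read 2111 and 1914 on the E arrays and 28.4 and 27.4 on the M1 arrays (-5.09 ± 0.19); the product of both genes is the main collagen of basement membranes. The laminin chain genes Lamb3 (-3.37), Lama5 (-2.35) and Lama4 (-1.68) fell, as did the proteoglycan agrin (Agrn, -3.10 ± 0.19). Col4a5, of another type IV collagen trimer, rose from 359.8 and 290.1 to 1321 and 1419 (1.98 ± 0.15). The laminin chains Lama2 (0.09), Lama3 (-0.36), Lamb1 (0.72) and Lamc1 (-0.29) did not pass; Lama3 pairs with Lamb3 in epithelial laminin. Lamb2 (-1.27) was called lower with the deposited scaling only.

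Of 22 further matrix glycoproteins 15 rose and 2 fell. Fn1 read 972 and 790.3 on the E arrays and 7056 and 6911 on the M1 arrays (2.95 ± 0.12); fibronectin is the classic matrix protein of mesenchymal cells. Sparc, a collagen-binding glycoprotein, read 405 and 319 on the E arrays and 9388 and 9269 on the M1 arrays (4.58 ± 0.11). Tgfbi, which is induced by TGF-beta, read 8.3 and 3.1 on the E arrays and 3028 and 2778 on the M1 arrays (6.28 ± 0.15). The CCN family split: Ccn1, Ccn3, Ccn4 and Ccn5 rose (1.62, 4.75, 3.27 and 1.5, the last call being lost with the largest pseudocount tried and with low values set to 64) and Ccn2, the connective tissue growth factor, fell from 2219 and 2025 to 858 and 801 (-1.32 ± 0.17). Matrix Gla protein (Mgp), an inhibitor of calcification, went from 5403 and 5327 to 175 and 131 (-4.88 ± 0.15). Tenascin C (Tnc), at -1.11 ± 0.19, was called lower with the deposited scaling and not after quantile normalization.

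Of 25 matrix proteases and their inhibitors 15 rose and 0 fell; at a raw limma p under 0.05 with no fold limit, 1 of them and 1 of the surface and cytoskeletal genes were lower. Among inhibitors of metalloproteases, Timp1 read 31.2 and 26.3 on the E arrays and 3848 and 3896 on the M1 arrays (6.01 ± 0.14). Timp3 and Timp2 changed by 5.15 ± 0.18 and 3.01 ± 0.10. Among proteases, Mmp14, the membrane-anchored collagenase, read 271 and 210.2 on the E arrays and 1770.2 and 1820.3 on the M1 arrays (2.75 ± 0.14), and the stromelysins Mmp3 and Mmp10 changed by 2.78 ± 0.15 and 4.04 ± 0.16. The lysosomal cathepsin L gene Ctsl read 1185 and 1123 in E and 9250.2 and 8780.0 in M1 (2.93 ± 0.09), and the disintegrin metalloprotease gene Adam19 6.4 and 2.2 and 683 and 647 (4.27 ± 0.17). Mmp2, a gelatinase of fibroblasts, was bright in both lines and did not pass (0.33 ± 0.14), and neither did the urokinase receptor Plaur (-0.14 ± 0.14).

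Markers of other cells were read beside these groups. Of 12 stromal fibroblast markers 9 rose and 0 fell, with a median of 3.99 and summed signals of 492 and 355 on the E arrays and 28337 and 28044 on the M1 arrays; 7 of these 12 genes are also on the mesenchymal or matrix lists above. Their part in the rise of those lists was not tested. Lum, Pdpn and Pi16 did not pass and stayed at means of 9.05, 34.4 and 8.1 in M1, and Fap and Dpt were below the filter on low signals. Of 14 leukocyte markers 1 rose, the integrin chain Itgb2, and the defining marker Ptprc (CD45) was near background in both lines, at means of 6.45 and 13.6; the list summed to 398 and 382 on the E arrays and 782 and 783 on the M1 arrays. Of 8 endothelial and 3 adipocyte markers 0 were called under both scalings; Plvap (-1.18) and Slc2a4 (-1.09) were called lower with the deposited scaling. At a raw limma p under 0.05 with no fold limit, 1 endothelial marker was higher and 1 lower, and 0 and 1 of the adipocyte markers. Of 7 skeletal muscle markers Acta1 rose (1.11) and Tnni2 fell (-1.43); both calls were lost with the largest pseudocount tried, that of Acta1 also without E replicate 2 and that of Tnni2 also with low values set to 64. In such bulk RNA, fewer cells of a type and less RNA per cell cannot be told apart.

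Integrin chains split. Of the 17 chains tested, Itga5 (4.50), Itgb7 (3.62), Itgb2 (3.43) and Itga7 (2.12) rose. Itga5 read 9.7 and 9.9 on the E arrays and 918 and 909.9 on the M1 arrays (4.50 ± 0.17); with the beta 1 chain it forms the fibronectin receptor. Itga8, another partner of beta 1, read 5782 and 5065 on the E arrays and 221 and 227 on the M1 arrays (-4.41 ± 0.15). The other falls were Itgb3 (-2.36), Itga1 (-1.80), Itgb8 (-1.58) and Itgb4 (-1.33), the last being the hemidesmosome chain of epithelia; the Itga1 call was lost with the largest pseudocount tried and with low values set to 64. Itgb1, Itgav and Itga3, which were bright in both lines, did not pass (-0.21, 0.30 and -0.64).

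ERBB receptors and ligands were of interest because neu started the parent tumour. Erbb2 read 315 and 321 on the E arrays and 169.9 and 187 on the M1 arrays (-0.74 ± 0.17, adjusted p = 1.98e-04), a fall short of 2-fold that was not called. The strain's transgene is known to carry the rat form of neu, and whether the mouse probe set reads it was not tested, so this value does not measure the transgene by itself. Erbb3 read 3622 and 3402 on the E arrays and 29.1 and 23.6 on the M1 arrays (-5.93 ± 0.17); ERBB3 is the kinase-poor partner of ERBB2. Of 13 genes 2 rose and 4 fell. Among ligands, Tgfa went from 1168 and 994 to 14.3 and 18.4 (-4.52 ± 0.19) and Hbegf from 2442 and 2194 to 459 and 489 (-2.21 ± 0.15), whereas epiregulin (Ereg, 1.46 ± 0.15) and the ERBB3 ligand Nrg1 (1.16 ± 0.18) rose. The Nrg1 call was lost with the largest pseudocount tried and without E replicate 2. Egfr did not pass (-0.52 ± 0.17).

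Among 28 other receptor tyrosine kinases 4 rose and 6 fell. Axl read 3.6 and 13.2 on the E arrays and 3969.7 and 3949 on the M1 arrays (6.64 ± 0.15); AXL is a receptor for GAS6 known from mesenchymal tumour cells. The collagen receptors moved in opposite directions: Ddr1, the epithelial form, fell from 4548 and 4279 to 931 and 1040.0 (-2.13 ± 0.16) and Ddr2, the mesenchymal form, rose from 10.8 and 1.4 to 1109 and 1055 (4.88 ± 0.17). Both receptors for platelet-derived growth factor rose, Pdgfra to 867 and 776 (3.70 ± 0.16) and Pdgfrb to 396 and 384 (3.62 ± 0.18). Kit, the stem cell factor receptor, read 1532 and 1221 on the E arrays and 4 and 11.1 on the M1 arrays (-5.15 ± 0.19). Fgfr2, whose epithelial isoform binds stromal fibroblast growth factors, fell (-2.63 ± 0.18), while Fgfr1 (0.95 ± 0.16) and Met (0.50 ± 0.15) did not pass.

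The TGF-beta ligands moved in opposite directions. Tgfb1 read 66.7 and 55.1 on the E arrays and 451 and 373 on the M1 arrays (2.25 ± 0.17), while Tgfb2 fell from 1051 and 934 to 18.4 and 15.3 (-4.39 ± 0.17) and Tgfb3 from 1693 and 1559 to 121 and 98.3 (-3.55 ± 0.17). The Tgfb1 call was lost with the mean of its probe sets. The activin chains did the same, Inhba rising (3.43 ± 0.19) and Inhbb falling (-4.46 ± 0.18). Among receptors, Acvr1 (1.33) and Tgfbr3 (1.15) rose, and Bmpr2 (-1.15) was called lower with the deposited scaling only. The Acvr1 call was also lost with the mean of its probe sets. The receptor genes Tgfbr1 and Tgfbr2 and the signal transducers Smad2, Smad3 and Smad4 lay between -0.42 and -0.08 and were not called. Among inhibitors, Bambi and Smad6 fell (-4.09 ± 0.18 and -3.29 ± 0.17), Chrd rose (1.12 ± 0.20) and Smad7 did not pass (-0.64 ± 0.17). The Chrd call was lost with the largest pseudocount tried, with low values set to 64 and without M1 replicate 2. Over the 31 genes 6 rose, 9 fell and 16 did not pass.

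In the Wnt pathway, 4 of 26 genes rose and 10 fell. Among ligands, Wnt7b read 1981 and 1723 on the E arrays and 37.5 and 11.2 on the M1 arrays (-5.10 ± 0.19) and Wnt5a, a ligand of the beta-catenin-independent branch, rose from 17.1 and 16.3 to 558 and 552 (3.59 ± 0.18). Of 6 frizzled receptor genes on the list 4 fell, Fzd5 (-3.96), Fzd6 (-3.80), Fzd1 (-2.11) and Fzd7 (-1.92), and Fzd2 (-0.05) and Fzd8 (-0.26) did not pass. The co-receptor genes Lrp6 (-1.67) and Lrp5 (-1.54) fell, the Lrp5 call being lost with the largest pseudocount tried. Among secreted inhibitors Wif1 and Sfrp1 fell (-4.14 ± 0.19 and -3.92 ± 0.19), Dkk2 rose (1.46 ± 0.22, a call lost with the largest pseudocount tried and with low values set to 64) and Dkk3 did not pass (0.02). Axin2 and Lgr5, often used as target genes, were near background in both lines, with means of 13.1 and 12.3 in E and 22.2 and 15.2 in M1.

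Notch genes fell in 7 of 18 cases and rose in 2. Hey1 read 2844 and 2450.5 on the E arrays and 18.5 and 25.1 on the M1 arrays (-5.64 ± 0.18), Hes1 read 3413 and 3109.6 on the E arrays and 76.6 and 40.6 on the M1 arrays (-5.21 ± 0.19) and Nrarp read 1785 and 1522 on the E arrays and 18.2 and 4.4 on the M1 arrays (-5.30 ± 0.18); all 3 are direct targets of Notch. The ligand Dll1 and the receptors Notch1 and Notch3 changed by -4.07 ± 0.17, -3.79 ± 0.17 and -2.40 ± 0.19. Notch2 did not pass (0.74 ± 0.15). The rises were Notch4, from 1.1 and 3.7 to 118 and 111 (2.09 ± 0.20), and the co-activator Maml1 (1.09 ± 0.16), both lost with the largest pseudocount tried and with the mean of their probe sets. The Notch4 call was also lost with low values set to 64 and that of Maml1 without E replicate 2.

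In the insulin-like growth factor axis 3 binding-protein genes rose: Igfbp4 (7.99), Igfbp6 (7.14) and Igfbp7 (3.17). Igfbp6 read 24.3 and 30 on the E arrays and 8303 and 8349 on the M1 arrays (7.14 ± 0.12). Igfbp5 fell to background, from 138 and 96.6 to 4.8 and 2.1 (-2.06 ± 0.21), a call lost with the largest pseudocount tried and with low values set to 64. The docking protein Irs1 went from 3413 and 3242 to 375 and 341 (-3.11 ± 0.16) and the clearance receptor Igf2r fell (-2.36 ± 0.17). Igf1r did not pass (-0.16 ± 0.17), and the ligands Igf1 and Igf2 were near background in both lines.

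Of 18 tested markers of mammary stem and progenitor cells, sorting markers on the cell surface among them, 3 rose and 6 fell. Cd24a read 7151 and 7056 on the E arrays and 70.6 and 68.5 on the M1 arrays (-6.13 ± 0.17). Cd44 read 3123 and 2538 in E and 5102 and 5239 in M1, a change of 0.87 ± 0.12 under the 2-fold limit (adjusted p = 1.13e-08); it was called after median centring, after scaling to the hybridization controls, with the mean of its probe sets and without E replicate 1. Procr, a marker of mammary stem cells in mice, read 8 and 18.2 on the E arrays and 480.5 and 524 on the M1 arrays (3.57 ± 0.17), and Klf4, a zinc-finger factor, read 11.4 and 13.4 on the E arrays and 3391 and 3528 on the M1 arrays (6.30 ± 0.16). Prom1 fell (-4.33 ± 0.19), as did Kit, Abcg2, Bmi1 and Cd55, while Cd34 rose. Itga6 and Itgb1 did not pass (-0.89 and -0.21), and Sox2, Pou5f1, Nanog and Aldh1a1 were below the filter.

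Genes of ABC transporters, drug efflux pumps among them, changed in both directions, also within a family. Abcb1b read 9.9 and 6.1 on the E arrays and 749 and 689 on the M1 arrays (4.23 ± 0.17) and Abcb1a read 26.5 and 17 on the E arrays and 252 and 236 on the M1 arrays (2.37 ± 0.17); both code for P-glycoproteins. Abcc4, Abcc5 and Abcc1, of the multidrug resistance protein family, rose as well (3.99, 2.01 and 1.42), while Abcc2 (-0.27), Abcc3 (-0.56) and Abcc10 (-0.57) of that family did not pass. Among other Abcb genes, Abcb6 (-1.31) and Abcb9 (-1.33) fell; the Abcb9 call was lost with the largest pseudocount tried, with low values set to 64 and without M1 replicate 1. Abcg2, the breast cancer resistance protein, read 1994 and 1796 on the E arrays and 204 and 217 on the M1 arrays (-2.99 ± 0.17), and Abca3, a lipid transporter, changed by -2.27 ± 0.16. Of 17 tested, 5 rose and 4 fell; Abca1 and Abca2, at -1.20 and -1.21, were called lower with the deposited scaling only.

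Cytokine and chemokine genes rose in 13 of 34 cases and fell in 5, against 8.59% and 9.35% of all genes. Among monocyte-attracting chemokines, Ccl2 read 316 and 304 on the E arrays and 4883 and 4734 on the M1 arrays (3.82 ± 0.11) and Ccl7 read 37.9 and 31 on the E arrays and 1292 and 1250.1 on the M1 arrays (4.30 ± 0.14). Cxcl5, a neutrophil attractant, read 702 and 552 on the E arrays and 6658 and 6652 on the M1 arrays (3.35 ± 0.11), and Cxcl12, a stromal chemokine, read 3.4 and 10.2 in E and 572 and 599.6 in M1 (4.0 ± 0.18). The colony-stimulating factors split. Csf1 and Csf2, for macrophages and for granulocytes and macrophages, rose (1.89 ± 0.13 and 3.14 ± 0.18), and Csf3, the granulocyte factor, read 7641 and 7164 on the E arrays and 275 and 242 on the M1 arrays (-4.68 ± 0.13). Ccl20 and the interleukin 1 receptor antagonist Il1rn fell to background (-4.67 ± 0.17 and -4.42 ± 0.17). Cxcl1 was bright in both lines and did not pass (0.18 ± 0.09), and Il6 was near background in both.

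Class I antigen presentation genes rose in 7 of 17 cases and fell in 0; 2 were lower at a raw limma p under 0.05 with no fold limit. Psmb8 read 10.6 and 10.9 on the E arrays and 1509 and 1439 on the M1 arrays (5.14 ± 0.16); with Psmb9 (1.52 ± 0.17) and Psmb10 (1.32 ± 0.15) it forms the immunoproteasome. The heavy chain H2-D1 went from 4604 and 3892 to 9368 and 9241 (1.13 ± 0.09), while H2-K1 and the light chain B2m did not pass (0.12 and 0.17). H2 genes are near-identical copies that can share probes, so their separate values are uncertain. The peptide transporter chain Tap2 rose (1.04 ± 0.17) and Tap1 did not pass (-0.31 ± 0.17). The calls of Psmb9 and Tap2 were lost with the largest pseudocount tried, that of Tap2 also without E replicate 2, and that of H2-D1 with the mean of its probe sets.

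Of 32 interferon response genes 7 fell and 2 rose. Oas1a, an antiviral RNA sensor, read 722 and 657 on the E arrays and 19.2 and 15.1 on the M1 arrays (-3.88 ± 0.17), and Irf7 read 239.5 and 239 on the E arrays and 28.3 and 17.7 on the M1 arrays (-2.31 ± 0.19). Irf9, a component of the type I interferon factor, changed by -2.95 ± 0.18, and Usp18, which removes ISG15, by -2.32 ± 0.17. The 2 rises were of GTPase genes that interferon gamma induces: Gbp2 went from 23.2 and 33.5 to 579.5 and 584 (3.35 ± 0.17) and Ifi47 from 83.7 and 113 to 1187 and 1162 (3.22 ± 0.16). Other such genes on the list, Gbp3, Igtp and Irgm1, did not pass. The receptor genes Ifnar1, Ifnar2 and Ifngr1 did not pass (-0.42, -0.65 and 0.27).

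Cell cycle genes mostly stayed within 2-fold between M1 and E. Of 28 DNA replication genes 0 were called under both scalings; with the deposited scaling 1 was called, Ccne1 at -1.0 ± 0.19, and at a raw limma p under 0.05 with no fold limit 4 were higher and 17 lower. Their changes ran from -1.0 to 0.83 with a median of -0.40. Of 27 mitosis genes 1 fell, Kif23 at -1.18 ± 0.17, a call lost with the mean of its probe sets, and the changes ran from -1.18 to 0.70 with a median of -0.23. Nusap1 was called lower with the deposited scaling and not after quantile normalization. At a raw limma p under 0.05 with no fold limit 4 mitosis genes were higher and 11 lower. Pcna, the replication clamp, read 12407 and 12188 in E and 9339.5 and 9164 in M1. Mki67, a marker of cycling cells, read 3387 and 3045 and 1732 and 1676 (-0.90 ± 0.15), and Cdk1, the mitotic kinase, 4509 and 4371 and 4661 and 4715 (0.08 ± 0.12).

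Some D cyclin and CDK inhibitor genes changed. Ccnd2 read 50.4 and 30.4 on the E arrays and 4682 and 4683 on the M1 arrays (6.04 ± 0.15), while cyclin D1 (Ccnd1) was bright in both lines, at 10634 and 10382 and 7634 and 7654, and did not pass (-0.46 ± 0.10). The neighbours in the Ink4 locus went apart: Cdkn2a fell from 99.4 and 63.2 to 15.1 and 2.4 (-1.47 ± 0.23) and Cdkn2b rose from 442 and 330.2 to 1068 and 1044 (1.39 ± 0.16). The Cdkn2a call was lost with the largest pseudocount tried and with low values set to 64. Rb1 fell (-1.39 ± 0.17) and was not called with the mean of its probe sets. The p53 target Cdkn1a was at -0.90 ± 0.14 and not called. Of 22 such genes 4 rose, 4 fell and 14 did not pass.

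Among 31 DNA repair genes 4 fell and 0 rose, beside 9.35% and 8.59% of all genes. With the deposited scaling 6 were called lower. At a raw limma p under 0.05 with no fold limit 6 were higher and 13 lower. Ercc1 read 3508 and 3405 on the E arrays and 746 and 786 on the M1 arrays (-2.13 ± 0.15); ERCC1 is a subunit of the nuclease of nucleotide excision repair. Ung, which removes uracil from DNA, Lig3, a ligase, and Ddb2, a sensor of ultraviolet damage, changed by -1.98 ± 0.17, -1.77 ± 0.17 and -1.75 ± 0.17. Brca1, Brca2 and Atm did not pass (-0.46, 0.12 and 0.52). In the BCL2 family of 13 genes, 5 fell and 2 rose. The cell death inhibitors Bcl2 and Bcl2l1 fell, with Bcl2 going from 527 and 468 to 54.7 and 35.2 (-2.79 ± 0.19) and Bcl2l1 from 1834 and 1605 to 595 and 536 (-1.55 ± 0.16), as did the BH3-only genes Bmf (-2.20), Bik (-1.79) and Bid (-1.14). The Bmf call ended when probe sets were averaged; calls ended with the largest pseudocount tried for Bik and after scaling to the hybridization controls for Bid. The rises were Bok (3.64) and Bnip3 (3.38), and Mcl1 did not pass (0.03).

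Isoforms of glycolytic enzymes went different ways. Aldoc read 6619 and 6307 on the E arrays and 35 and 25 on the M1 arrays (-6.72 ± 0.17), whereas the widely expressed Aldoa did not pass (-0.21 ± 0.09). Ldhb fell (-2.14 ± 0.15) and Ldha did not pass (0.32 ± 0.08); Eno2 rose (1.67 ± 0.17). The glucose transporter Slc2a1 went from 2704 and 2489 to 5268 and 5417 (1.03 ± 0.12). Genes known as hypoxia targets went different ways. Ndrg1 read 1.9 and 18 on the E arrays and 3189.8 and 3224 on the M1 arrays (6.30 ± 0.17), Adm rose to 554 and 601 (3.16 ± 0.17), and Bnip3 and Vegfa rose as well (3.38 ± 0.14 and 1.39 ± 0.17). Egln3, for an oxygen-sensing prolyl hydroxylase, fell (-1.48 ± 0.14), and Egln1 (-0.30), Pdk1 (0.72), Hk2 (0.47) and Slc16a3 (0.08) did not pass. The Slc2a1 call was lost without E replicate 2 and the Eno2 call with the largest pseudocount tried. Hif1a did not pass (0.20 ± 0.11), and Epas1, which codes for HIF-2 alpha, fell from 1232 and 1045 to 296 and 289 (-1.85 ± 0.18). Over 26 genes 6 rose, 6 fell and 14 did not pass.

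Sterol and fatty acid synthesis genes mostly did not pass, with 2 of 24 higher and 2 lower. Srebf1 read 3526 and 3003 on the E arrays and 518 and 536 on the M1 arrays (-2.56 ± 0.16); SREBP-1 drives lipid synthesis genes, of which Fasn (-0.26) and Acaca (-0.67) did not pass and Elovl6 rose (1.60 ± 0.17), a call lost with the mean of its probe sets. In the glutathione and antioxidant list 10 of 30 rose and 5 fell. Gpx2, the epithelial glutathione peroxidase, read 7534 and 8647 on the E arrays and 10.7 and 5.7 on the M1 arrays (-7.66 ± 0.18). Among glutathione transferases Gsta4 (-4.02), Gstt1 (-3.56) and Gsta3 (-1.87) fell, Gstm1 (2.69) and Gstm2 (1.49) rose and Gsta2 (0.14), Gsto1 (-0.06) and Gstp1 (0.06) did not pass. The Gsta3 call was lost with the largest pseudocount tried and with low values set to 64. Haem oxygenase 1 (Hmox1), Nqo1 and Gclm, targets of NRF2, rose to 2214 and 2263, 437 and 404 and 1509 and 1535 (4.42, 3.29 and 1.44). Not all such targets rose. Gclc was called lower with the deposited scaling and not after quantile normalization, and Gsr, Gss and Txnrd1 did not pass. Txn1 and Slc7a11 of this list also rose. The Slc7a11 call was lost with the largest pseudocount tried, with the mean of its probe sets and without M1 replicate 2. Metallothionein 2 (Mt2) went from 59.8 and 26.5 to 5642 and 5582 (6.27 ± 0.13), while Mt1 did not pass (0.33 ± 0.10).

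Ion and water transport genes fell in 9 of 22 cases and rose in 3. Fxyd3 read 10795 and 10423 on the E arrays and 22.7 and 23.8 on the M1 arrays (-7.59 ± 0.17) and Atp1b1 read 9361 and 8847 on the E arrays and 64.6 and 54.2 on the M1 arrays (-6.64 ± 0.17); their products are a regulator and the beta 1 chain of the sodium pump, whose beta 3 chain Atp1b3 did not pass (0.08 ± 0.12). Carbonic anhydrase 2 (Car2) and the potassium channel gene Kcnk1 changed by -6.13 ± 0.18 and -6.74 ± 0.18. The water channels went apart: Aqp5, of secretory epithelia, fell (-1.04 ± 0.13), Aqp3 rose (1.04 ± 0.20) and Aqp1 read 12.7 and 23.6 on the E arrays and 5249 and 5072 on the M1 arrays (6.70 ± 0.16). The Aqp5 call was lost after median centring, after scaling to the hybridization controls and without E replicate 1. The Aqp3 call was lost with the largest pseudocount tried and with low values set to 64, with the mean of its probe sets and without E replicate 2 or M1 replicate 2.

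The next comparison asked what set M1 apart from the other relapse lines. M1 was compared with the mean of M2, M3 and M4, a contrast that does not use the E arrays. With the deposited scaling 794 genes (5.35%) were called, 543 higher (3.66%) and 251 lower (1.69%). Under both scalings 293 were higher (1.97%) and 251 lower (1.69%); quantile normalization alone gave 293 and 345. Of the 544 genes called here under both scalings 299 were also called between M1 and E, where 17.9% of all genes were. Both comparisons use the same 2 M1 arrays, so their calls are not independent. Of the 299 genes, 157 were higher in M1 than in both E and the other relapse lines and 67 lower than in both. A further 48 were higher than E but lower than the other relapse lines, and 27 were lower than E but higher than those lines. The genes named below are the 10 highest and 10 lowest of that set.

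The clearest M1 gene was Efemp1, for the matrix glycoprotein fibulin 3. It read 5245 and 4552 on the M1 arrays and 1.4 and 10.3 on the E arrays, with means of 11.7, 5.3 and 11.9 in M2, M3 and M4 (M1 minus others 6.90 ± 0.15, adjusted p = 2.15e-36). Acta2 read 3669.6 and 3751 in M1 against means of 345, 186 and 762 in M2, M3 and M4 (3.22 ± 0.14), and its contractile partner Myl9 449.6 and 403 against 34.4, 17.4 and 38.5 (2.90 ± 0.15). Khdrbs3, for an RNA-binding splicing regulator, was near background in every line but M1, where it read 216 and 231 (2.95 ± 0.16). Lmo1, for a LIM-only transcriptional cofactor, read 984 and 1015 against 137, 266 and 16.8 (2.94 ± 0.14), and Cbr1, a carbonyl reductase, 310.5 and 350.2 against 7.4, 9.45 and 20.5 (3.04 ± 0.16). Ctla2a, for an inhibitor of cathepsins, read 594 and 593 against 64.1, 75.3 and 19.7 (2.97 ± 0.16).

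The mean of the other lines hid differences among them in some genes. Col1a2, at 9502 and 9615 in M1, had means of 156, 91.5 and 6751, so that M1 was above M2 and M3 and differed from M4 by 0.50, which was not called. Ano1, a calcium-activated chloride channel, fell from 8950.1 and 8788 in E to 915 and 959.8 in M1 but had means of 449, 52.3 and 29.1; against M2 alone it was called with the deposited scaling only (1.02). Of the 20 genes, 16 were called in the same direction against each single relapse line under both scalings, a comparison added after the data were seen. The exceptions were Col1a2, Ano1, Vnn1 and S100a8.

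Krt8 and Krt18, the partners of one filament, separated in the relapse lines. Krt8 read 8477 and 7441 in E and 46.9 and 67.2 in M1, with means of 7947, 5529 and 4538 in M2, M3 and M4, so that M1 alone had lost most of its signal (-6.05 ± 0.10). Krt18 read 12784 and 12439 in E and 542 and 554 in M1, with means of 14.2, 6.8 and 5, so that M1 alone kept a signal above background (3.85 ± 0.14). Signals of different probe sets cannot be compared in level, so each gene is read across the lines only. Both promoters are printed above and each holds 1 CAGGTG.

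**Figure D4:**
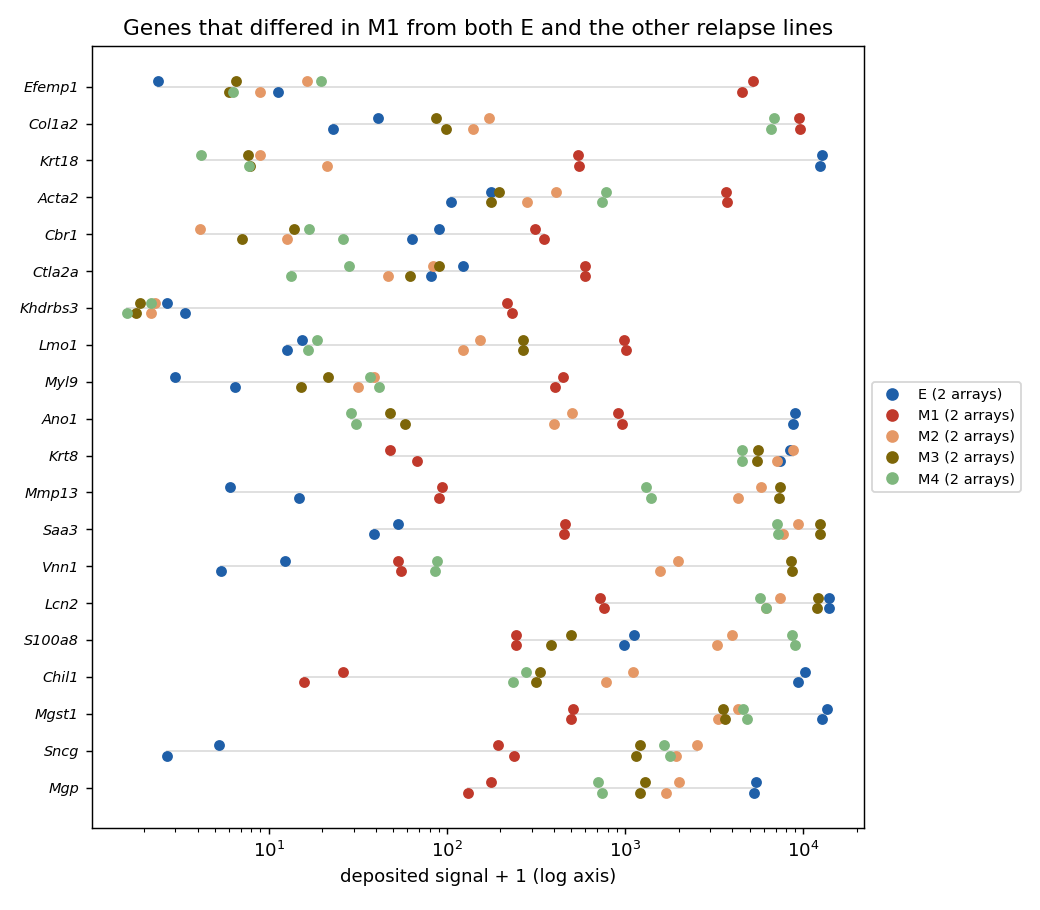
Deposited signal plus 1 (log axis) on all 10 arrays, 2 for each line, for the 10 genes most above (upper rows) and the 10 most below (lower rows) in M1 against the mean of M2, M3 and M4, among genes also called between M1 and E. M1 (red) stands apart from the other relapse lines in most rows, while Col1a2 and Vnn1 in M4, Ano1 in M2 and S100a8 in M3 lie near it.

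Several genes were lower in M1 than in the other relapse lines and, beside Krt8, are given here as the lowest of that set. Saa3, an acute-phase protein, read 460.4 and 454 in M1 against means of 8544, 12437 and 7194 (-4.23 ± 0.11), and E was lower still at 52.3 and 38.1. Lcn2 read 721 and 761 against 6794, 12038 and 5949.7 (-3.35 ± 0.08), and the chitinase-like gene Chil1 25.3 and 14.9 against 944, 324 and 256 (-3.16 ± 0.14). Mmp13, a collagenase, read 93 and 89.1 in M1 and 5029, 7337 and 1354 in the others (-4.91 ± 0.13). Its rise over E in M1 was lost with the largest pseudocount tried and with low values set to 64. S100a8, a calgranulin, had means of 3633, 440.4 and 8801, with M3 close to the M1 signals of 245 and 245. Vnn1, a pantetheinase, had means of 1779.6, 8622 and 85.7, with M4 close to the M1 signals of 52.5 and 54.2. Mgst1, a membrane glutathione transferase, Sncg, a synuclein, and Mgp differed by -2.91 ± 0.09, -2.77 ± 0.13 and -2.74 ± 0.12 on the log2 scale.

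Cell cycle lists also stood higher in M1 than in the mean of the other relapse lines, and this rested on M3. Under both scalings 7 of 28 replication and 9 of 27 mitosis genes were higher in M1, and 0 were lower. With the deposited scaling these counts were 13 and 19, and without M3 they were 0 and 0. Against M3 alone 24 and 27 were higher under both scalings, where the background was 5.03% of all genes, and against M2 or M4 alone 0 were (background 1.82% and 2.88%). Lower genes made up 2.47%, 2.55% and 2.13% of all genes in these 3 comparisons, and 0 of both lists. With the deposited scaling 0 of either list were called against M2 and 1 of each against M4. At a raw limma p under 0.05 with no fold limit, 10 replication and 11 mitosis genes were higher than in M2 and 16 and 21 higher than in M4. Mki67 had a mean of 1704 in M1 and 1383, 102 and 955 in M2, M3 and M4. The median change from E of the replication genes was -0.40 in M1 and -0.62, -2.61 and -0.79 in M2, M3 and M4; these 4 comparisons share the E arrays.

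**Figure D5:**
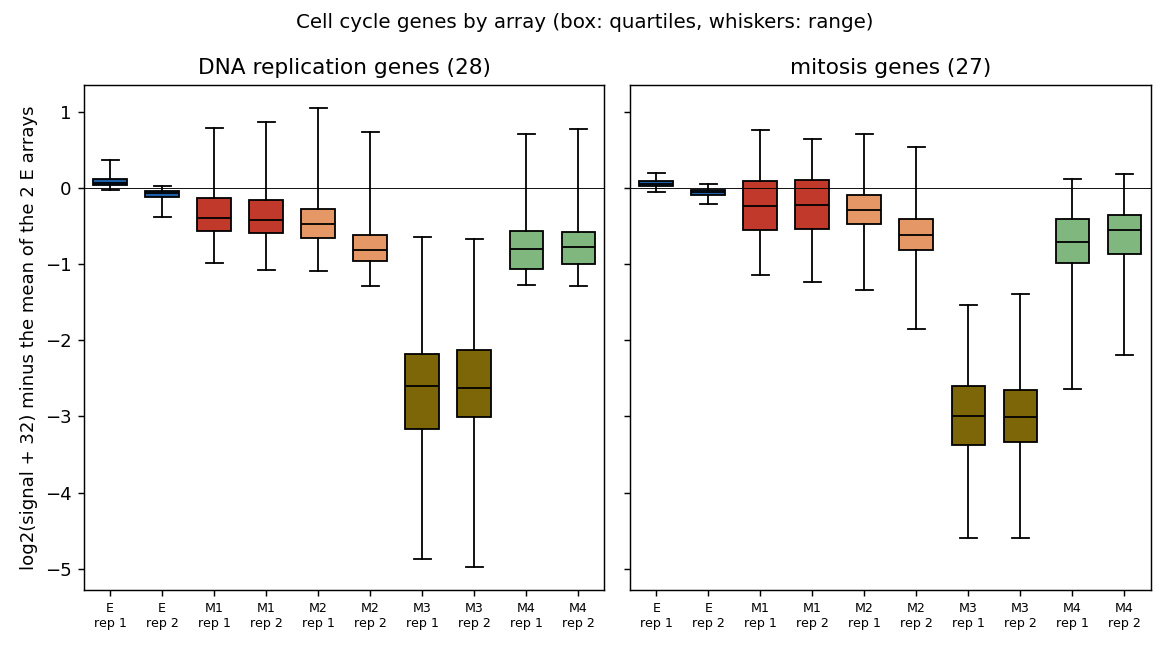
Log2(signal + 32) of 28 DNA replication and 27 mitosis genes on each of the 10 arrays, relative to the mean of the 2 E arrays (box: quartiles, whiskers: range over genes). The M1 arrays lie just below 0, near those of M2 and M4, and the M3 arrays lie far lower.

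Some other lists held genes called between M1 and the mean of the other relapse lines under both scalings, where 1.97% of all genes were higher and 1.69% lower. Mesenchymal surface and cytoskeletal genes were higher in M1 in 6 of 24 cases and lower in 0. With the deposited scaling 7 were higher, and 11 without M2. Stromal fibroblast markers, 7 of which are also on mesenchymal or matrix lists, were higher in 2 and lower in 5 of 12, with a median of -0.91. On the deposited scaling these markers gave 2 and 5, against 2 and 3 without M2, 1 and 6 without M3 and 3 and 3 without M4. Matrix glycoproteins were higher in 2 and lower in 5 of 22, and their direction depended on the lines used. On the deposited scaling 4 and 5 were higher and lower, against 5 and 2 without M2, 2 and 5 without M3 and 5 and 2 without M4. Desmosome genes were higher in 3 of 11; on the deposited scaling 4 were higher, and 2 without M4. Cytokine and chemokine genes were higher in 3 and lower in 7 of 34. The tight junction list had 0 higher and 2 lower of 19, and the polarity list 1 and 0 of 19. Col3a1 had a mean of 902 in M1 and 1368, 72 and 5763 in M2, M3 and M4, and Cxcl12 586 and 136, 23.4 and 119.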

How the data were processed

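RNA of 5 mouse mammary tumour lines was measured on 10 one-colour arrays, 2 per line. The deposited values are probe set signals, intensity on a linear scale, for 45101 probe sets; GCOS 1.3 is named in the submitters' processing notes, and the sources used here do not give the signal algorithm or scaling. The 64 control probe sets were left out. By the array annotation 34945 probe sets had 1 gene symbol, 932 several and 9160 none; 34741 of the first had a gene number in the mouse gene table. The filter kept 32978 probe sets that exceeded the 40th percentile of 2 or more arrays. For each of 14840 genes the one with the highest mean signal was used. Of 1484 called genes with further probe sets, 995 had another called the same way, 4 the opposite way and 487 none called.

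A model with 1 mean per line was fitted to log2(signal + 32) with limma 3.58.1 in R 4.3.3 (lmFit, eBayes with a trend; 5 residual and 41.4 prior degrees of freedom, median residual SD 0.16), and p-values were Benjamini-Hochberg adjusted over all genes. All 5 lines shared the estimate of spread. On simulated data for M1 minus E over all 14840 genes, 50 of 50 genes were recovered at each of 4-fold, 8-fold and 16-fold. The simulated noise was normal with the spread of the fit, far below a 4-fold change, so this recovery was close to certain beforehand. It does not measure recovery at the 2-fold limit of a call. The number of arrays limits the precision.

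The 41 gene lists held 852 symbols, 806 with a probe set and 752 tested. The members and lists were chosen with earlier results of these data known. Named genes were 16 fixed markers, the 15 highest and 15 lowest of M1 minus E, up to 5 called in the majority direction of each list and up to 3 in the other, and the 10 highest and 10 lowest of M1 against the other lines; further list members were added after their values were seen. A switched gene was under 64 on both arrays of 1 line and over 1000 on both of the other. Alternatives changed the scaling, pseudocount, floor, filter, probe set rule, arrays used and block; comparisons of M1 with single relapse lines were added after the data were seen. The RefSeq promoter table is on GRCm38.p6.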

Additional observations from a re-analysis of the deposited data

Results flagged for a closer look

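Genes were looked at again where M1 differed from the other relapse lines, by limma's test of M1 minus the mean of M2, M3 and M4 on the log2(signal + 32) scale. Among the genes that were also called between M1 and E, the 10 highest were Efemp1 (6.90), Col1a2 (4.15), Krt18 (3.85), Acta2 (3.22), Cbr1 (3.04), Ctla2a (2.97), Khdrbs3 (2.95), Lmo1 (2.94), Myl9 (2.90) and Ano1 (2.84). The 10 lowest of these genes were Krt8 (-6.05), Mmp13 (-4.91), Saa3 (-4.23), Vnn1 (-3.84), Lcn2 (-3.35), S100a8 (-3.16), Chil1 (-3.16), Mgst1 (-2.91), Sncg (-2.77) and Mgp (-2.74). The largest adjusted p of these 20 genes was 3.47e-20.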

How the results depend on the processing

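Of 249 named genes called or tested in M1 minus E, 0 reversed under any of the 16 alternatives. Losses of the call numbered 28 with the largest pseudocount tried, 16 with values below 64 set to 64, 14 with the mean of probe sets, 9 after quantile normalization, 7 after scaling to the hybridization controls and 6 after median centring. Across all alternatives 766 genes stayed called higher and 1046 lower. M1 minus E gave 2055 calls and 1201 lower with that pseudocount. Leaving out 1 array of E or M1 gave 3075 to 3317 calls, 1190 to 1395 higher and 1680 to 2127 lower. Median centring gave 1477 higher and 1573 lower, and scaling to the hybridization controls 1401 and 1545, so that the split of directions moved with the scaling.

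M1 against the other lines was less stable. Higher calls numbered 293 after quantile normalization, 278 after scaling to the hybridization controls and 930 without M2. The count was 1243 (820 higher, 423 lower) with a pseudocount of 8 and 365 (257 higher, 108 lower) with the largest. Leaving out 1 M1 array gave 802 to 827 calls, 536 to 567 higher and 260 to 266 lower. With limits of 64 and 500, 172 genes were switched on and 219 off, against 84 and 108 with 64 and 1000. The cause was not tested. Each line has 1 array of each replicate number, so a replicate block could not change the log2 changes. It left 3134 and 794 calls and changed no named call, which is no evidence on pairing. Deviations of same-numbered arrays correlated at -0.071 to 0.058 (E with M1 0.0093), so no effect shared by arrays of the same number was seen. Signals near background limit the size of changes, and each line is 1 tumour.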

Other observations

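Beyond the gene lists, the genes switched between the lines held other transcription factors and signals. These genes were chosen after their values were seen. A total of 84 genes were under a signal of 64 on both E arrays and over 1000 on both M1 arrays, and 108 genes were the reverse. Sox10, a factor of neural crest that mammary progenitors also use, read 3544 and 3172 in E and 20.6 and 7.3 in M1 (-6.22 ± 0.18), and Foxi1, a forkhead factor of ion-transporting cells, read 2337 and 2019 in E and 4.7 and 15.7 in M1 (-5.72 ± 0.19). Fosl1 read 21.9 and 3.5 in E and 4364 and 4544 in M1 (6.68 ± 0.16); FRA-1 is a subunit of the AP-1 factor. Foxf1, a forkhead factor of mesoderm, read 22.4 and 20.6 in E and 1318 and 1236 in M1 (4.61 ± 0.16). Osr1, a zinc-finger factor of mesoderm, read 2.8 and 4 in E and 1009.5 and 1006 in M1 (4.88 ± 0.16).

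Secreted and surface proteins were among the genes switched on. Vcam1, the vascular cell adhesion molecule, read 1.4 and 1 in E and 2414 and 2433 in M1 (6.21 ± 0.15). Fgf7, a stromal growth factor for epithelia, read 15.5 and 11.5 in E and 2415 and 2427 in M1 (5.75 ± 0.14), and Gdnf, a ligand of the RET receptor, read 1.1 and 0.7 in E and 1323 and 1386 in M1 (5.40 ± 0.16). Fscn1 read 0.6 and 0.2 in E and 2616 and 2627 in M1 (6.36 ± 0.16); fascin bundles actin in protrusions. Ackr3, a receptor that takes up CXCL12, read 24 and 17.3 in E and 2701 and 2575 in M1 (5.67 ± 0.15). Among those switched off were genes known from cartilage. Cnmd, which codes for chondromodulin, read 8476 and 8176 in E and 1.4 and 0.7 in M1 (-7.98 ± 0.17). The collagen IX chain gene Col9a1 read 5955 and 5363 in E and 20.8 and 16 in M1 (-6.82 ± 0.17), and its partner Col9a3 read 4392 and 3521 in E and 0.5 and 8 in M1 (-6.78 ± 0.18). Folr1, a folate receptor, read 4889.8 and 4926 in E and 36.1 and 38.6 in M1 (-6.15 ± 0.17), and Gabrp, a chain of a receptor for GABA, read 3361 and 2889 in E and 19.7 and 15.9 in M1 (-5.98 ± 0.18). Means of Vcam1 were 2557, 2989 and 1161 in M2, M3 and M4 and those of Sox10 14.6, 6.55 and 18.3.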
